A study of Mus musculus with 7 samples.

Results

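The cells described here were γδ-selected thymocytes that carried many or few transcripts of 4 genes switched on by T-cell receptor (TCR) signals. They came from the WT DN3b γδ+ library, in which unique molecular identifiers (UMIs, each tagging 1 captured transcript) were counted per gene and barcode with the 10x 3′ v3 chemistry. Of 14906 barcodes, 13835 had at least 1000 detected genes, 12730 of these had at most 10% mitochondrial UMIs, and 11663 of these had at most 1 UMI of the B-cell genes Cd79a, Cd79b and Ms4a1 together. The members were chosen by measured values: the 11663 barcodes were ranked by the share of their UMIs that came from Egr1, Egr2, Nr4a1 and Nab2, with ties in barcode order, and divided into 4 sets of near equal size. The 2915 barcodes of the highest set, called the strong set, were compared with the 2916 of the lowest, called the weak set. Together they made up 5831 of the 66446 barcodes that passed the same filter in the whole series of 90016 deposited barcodes. Strong and weak name only this ranking, since no signal was measured directly.

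The series had 7 libraries of sorted thymocytes, 1 per group, of which 5 were from WT C57BL/6 mice and 2 from Lat-KO mice. WT thymi of female and male mice aged 6 to 8 weeks were pooled, depleted of CD4+ and CD8+ cells with magnetic beads, and sorted into γδ+ cells of the DN3b and DN4 stages, γδ− cells of the same stages, and DN3a cells. The γδ+ cells had been gated as NK1.1−, TCRδ+, CD3+, CD24+ and CD44low, so that the proteins of Cd24a, Cd44 and the CD3 and TCRδ genes had served in the sort. The paper defines DN3 cells as CD25+ and DN4 cells as CD25−, and CD25, encoded by Il2ra, was among the proteins stained for the sort. Lat-KO mice lack the adaptor LAT and carry a Trdc-H2BEGFP reporter, and gave DN3 γδ− and DN3 γδint cells. Every library, Lat-KO included, held 500 spiked splenic B cells. Because there was 1 library per group and cells are not replicates, no difference was tested, and every 95% interval given covers counting error only.

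A double-negative (DN, lacking CD4 and CD8) thymocyte at the DN3a stage that places a γδ TCR on its surface receives a signal through CD3, the kinases LCK and ZAP-70 and the adaptor LAT, which reaches the ERK, NFAT and NF-κB pathways. EGR1, EGR2 and NR4A1 are transcription factors made within minutes of such a signal, and NAB2 is a corepressor that binds EGR proteins and is itself induced by them.

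EGR proteins bind GC-rich sites in the promoters of many early genes, and the promoters of 5 genes described below show how such letters are distributed among them. Each is given as the 250 bases before the RefSeq start site (GRCm38.p6), 5′ to 3′ on the strand of the gene, with any match to the EGR letters GCGNGGGCG on either strand in capitals. None of these windows overlapped an exon of GENCODE vM21. They are chr15:101266596-101266845 (plus strand) for Nr4a1, chr2:57124004-57124253 (minus) for Nr4a2, chr2:127335909-127336158 (plus) for Dusp2, chr11:83649379-83649628 (minus) for Ccl3 and chr13:113100982-113101231 (minus) for Gzma.
Nr4a1: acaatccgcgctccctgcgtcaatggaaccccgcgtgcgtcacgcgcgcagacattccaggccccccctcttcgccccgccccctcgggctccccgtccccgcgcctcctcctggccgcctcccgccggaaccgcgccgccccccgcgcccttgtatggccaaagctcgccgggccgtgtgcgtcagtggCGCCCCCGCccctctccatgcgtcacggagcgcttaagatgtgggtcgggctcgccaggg
Nr4a2: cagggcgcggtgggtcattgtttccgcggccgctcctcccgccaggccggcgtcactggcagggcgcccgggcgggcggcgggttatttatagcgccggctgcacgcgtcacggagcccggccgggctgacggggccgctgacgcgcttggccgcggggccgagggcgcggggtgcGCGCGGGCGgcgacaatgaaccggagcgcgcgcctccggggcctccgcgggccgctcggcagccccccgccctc
Dusp2: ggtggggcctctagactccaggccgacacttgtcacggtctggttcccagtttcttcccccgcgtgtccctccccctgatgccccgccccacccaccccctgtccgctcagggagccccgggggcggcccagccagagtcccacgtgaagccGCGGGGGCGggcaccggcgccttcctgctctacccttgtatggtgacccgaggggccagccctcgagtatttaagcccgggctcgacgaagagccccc
Ccl3: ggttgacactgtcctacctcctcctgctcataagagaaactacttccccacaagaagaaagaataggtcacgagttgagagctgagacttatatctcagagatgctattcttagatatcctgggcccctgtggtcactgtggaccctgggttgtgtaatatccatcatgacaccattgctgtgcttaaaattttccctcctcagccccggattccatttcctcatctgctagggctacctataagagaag
Gzma: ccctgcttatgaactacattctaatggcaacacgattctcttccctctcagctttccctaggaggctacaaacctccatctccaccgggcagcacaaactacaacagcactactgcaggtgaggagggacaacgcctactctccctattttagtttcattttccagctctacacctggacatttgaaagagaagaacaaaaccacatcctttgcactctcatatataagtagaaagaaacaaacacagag

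The ranking gene Nr4a1 and the higher genes Nr4a2 and Dusp2 each held 1 match. The chemokine gene Ccl3, which was among the most different between the sets, and Gzma, the gene with the lowest ratio, held none. The promoters of the table that had this motif in the 300 bases from 250 before to 50 after the start were 5.55% of 32851, and 10.8% of the 5356 promoters of the genes compared here had it. Of the 191 genes higher in the strong set, 137 were found in the table, with 191 promoters of which 25 held the motif (13.1%). Of the 109 lower genes, 94 were found, with 126 promoters of which 5 held it (3.97%). Nab1, a higher gene that encodes a corepressor related to NAB2, had 3 matches, and so did Klf3, a lower gene with a log2 ratio of −1.19. The cyclic AMP response element TGACGTCA stood in 1.05% of promoters of higher genes and 1.59% of those of lower genes, against 3.79% of those compared. The AP-1 letters TGANTCA stood in 4.71% and 6.35% against 3.996%, and the NR4A letters AAAGGTCA in 0.524% and 1.59% against 0.952%, in each case on both strands. These are matches of letters and not measured binding.

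The ranking separated barcodes that differed by few molecules. In the weak set 2448 barcodes, or 21.0% of the 11663, had no UMI of the 4 genes, and the others had 1 or 2. Barcodes of the strong set had a median of 6 such UMIs and from 1 to 63. The last barcode below the strong set and the first within it both stood at 283 UMIs of the 4 genes per 1000000 UMIs (CPM), from 4 UMIs of 14134 and 3 of 10599. At the edge of the weak set both neighbours stood at 45.4 CPM, with 1 UMI each. The median value over barcodes was 0 CPM in the weak set, 83.0 in the second, 198 in the third and 473 in the strong set.

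The sets also differed in depth and cell-cycle phase. Median UMIs per barcode were 15281 in the weak set, 18268 in the second, 16092 in the third and 12692 in the strong set. After every barcode had been thinned to 4000 UMIs, which left out 357 weak and 393 strong barcodes, scores of S and G2/M gene lists called G1 in 9.496% of weak and 11.4% of strong barcodes, S in 32.4% and 42.4%, and G2/M in 58.1% (56.2 to 60.1, exact Clopper-Pearson) and 46.2% (44.2 to 48.2). Ribosomal-protein genes made up 29.2% of the UMIs of the weak set and 27.7% of those of the strong set, and mitochondrial genes 2.82% and 3.01%. Among barcodes with UMIs of either Xist or the Y-linked genes and not both, those with Xist were 64.8% in the weak set and 69.8% in the strong set. The part that depth, phase and mouse played in the differences below was not tested, and some values at matched depth, within a phase or within a sex are given beside the lists and genes below.

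**Figure D1:**
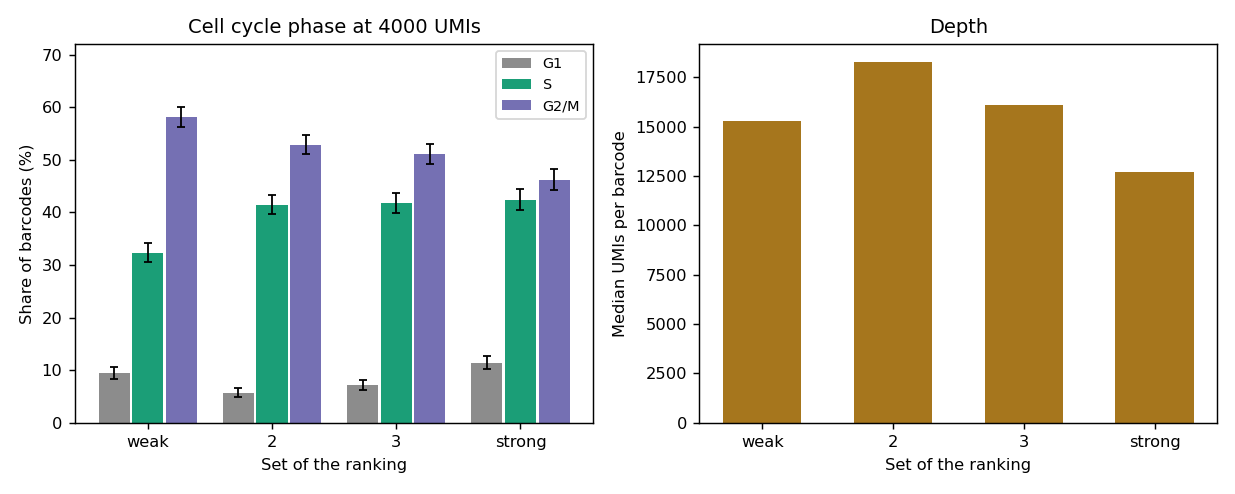
Cell-cycle phase calls (percent of barcodes thinned to 4000 UMIs, bars with exact 95% intervals) and median UMIs per barcode in the 4 sets of the ranking. G2/M calls went from 58.1% in the weak to 46.2% in the strong set, and median UMIs from 15281 to 12692 by way of 18268 in the second set.

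T-cell identity was present in both sets. The 10 T-cell markers summed to 4066 CPM in the weak and 4440 CPM in the strong set, and Trdc, which encodes the constant part of TCRδ, had a UMI in 90.5% of weak and 97.2% of strong barcodes at 4000 UMIs. Of the 10 markers 5 were higher in the strong set, among them Cd3g at 1257 and 1752 CPM, and 5 were lower. Among the lower ones Bcl11b stood at 238 and 101 CPM and Thy1 at 245 and 117 CPM. B-cell markers summed to 147 CPM in the weak set and 97.3 CPM in the strong set. Ighm carried that difference, at 109.7 and 55.3 CPM, and the 9 other B markers summed to 37.0 and 42.0 CPM. The 7 myeloid markers summed to 2.65 and 2.29 CPM with Adgre1 at 0, and the 4 haemoglobin genes to 2.41 and 1.21 CPM. The 5 NK markers summed to 230.8 and 405.9 CPM, carried by Nkg7, which γδ cells also express. Of the defining markers of NK and epithelial cells, Ncr1 and Foxn1 had no UMI in any set, whereas Epcam, which thymocytes also express, stood at 40.1 and 63.1 CPM. The 5 plasmacytoid markers summed to 376 and 298 CPM, carried by Bst2 and Ccr9, with Siglech at 0 in both sets. The 6 markers of CD4+CD8+ thymocytes summed to 41.1 and 60.7 CPM, carried by Trac at 25.5 and 58.3 CPM. The others were lower in the strong set: Rag1 stood at 9.02 and 1.33 CPM, Rag2 at 2.80 and 0.201 and Cd8b1 at 2.905 and 0.378. Cd8a stood at 0.662 and 0.378 CPM and Cd4 at 0.171 and 0.126 CPM.

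Transcripts of T-cell genes were also counted in the barcodes of spiked B cells. In 187 barcodes of the same library in which the 10 B-cell markers had 10 UMIs or more and 2 times as many as the 10 T-cell markers or more (median depth 3509 UMIs), Trdc was at 434 CPM and Cd28 at 143 CPM. At 4000 UMIs, 70 of these B-cell barcodes remained, of which 64.3% had a Trdc UMI, 31.4% a Cd28 UMI and 14.3% a Cd5 UMI. Ccl3 and Xcl1 had none in the 70, with an exact upper limit of 5.13%, although Xcl1 had UMIs in 2 of the 187. B cells make transcripts of Egr1, Egr3, Cd69 and Bcl2 themselves, so that their shares there are no measure of free RNA.

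The 4 ranking genes differed between the sets by construction. Egr1 stood at 2.54, 22.4, 57.7 and 183 CPM from the weak to the strong set, Egr2 at 0.171, 1.59, 5.12 and 26.0, Nr4a1 at 5.21, 39.0, 87.4 and 247, and Nab2 at 2.24, 22.02, 47.7 and 97.8. A view less tied to the choice came from ranking the barcodes on 3 of the genes and reading the fourth. Egr1 was then at 30.4, 35.3, 57.1 and 133 CPM, a log2 ratio of strong over weak of 2.13 (2.04 to 2.22). Egr2 read this way went from 1.65 to 22.5 CPM, with a log2 ratio of 3.78. The corresponding ratios were 1.69 for Nr4a1, from 53.6 to 173 CPM, and 1.73 for Nab2, from 22.4 to 74.4 CPM. Each of the 4 was therefore higher where the other 3 were high, with most of the difference in CPM between the third set and the strong set. For Egr1, Nr4a1 and Nab2 from 3234 to 4540 barcodes had no UMI of the other 3, more than the weak set holds, so that barcode order parted the weak from the second set.

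Across all other genes, 5255 reached 20 CPM in either set. A gene was counted as past the fold when its log2 ratio of summed CPM, strong over weak, was at least 0.5 in size with an interval leaving out 0. That held for 300 genes (5.71%), of which 191 were higher (3.63%) and 109 lower (2.07%) in the strong set. At a log2 ratio of 1, 52 were higher (0.990%) and 17 lower (0.324%). The median ratio of the 5255 genes was 0.05. Over the 4 sets 189 of the 191 higher genes stood in rising order and 105 of the 109 lower genes in falling order, beside 29.2% and 17.0% of all 5255 genes. The comparison itself chose these genes, so that such counts describe them and support nothing further. Of the 191 higher genes 60 reached 20 CPM in the strong set only, and of the 109 lower genes 43 in the weak set only, so that the filter itself favoured a difference there. List members of that kind that passed the fold are named beside the lists.

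The shares of all genes past the fold also depended on the setting, and counts under a setting are to be read beside them. Within barcodes called G1 and ranked anew 540 were higher (9.76%) and 594 lower (10.7%), within S 185 (3.58%) and 65 (1.26%), and within G2/M 217 (4.13%) and 101 (1.92%). With sets taken at matched depth 2.74% were higher and 1.55% lower, with barcodes thinned to 4000 UMIs and then ranked anew on the thinned counts 1.56% and 1.12%, by mean CPM over barcodes 2.35% and 1.99%, and within G1 at matched depth 8.31% and 7.48%. Thinning to 4000 UMIs also left fewer UMIs of the 4 ranking genes per barcode, so that more barcodes tied and that ranking was coarser. The part of this in the smaller counts was not tested.

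Immediate-early transcription factors outside the ranking were among the genes with the widest differences. Egr3, on chr14:70077203-70082614 (plus strand, mm10), encodes an EGR family member that also acts in thymocyte selection. It stood at 2.14 CPM in the weak set, 3.14 in the second, 7.97 in the third and 43.3 in the strong set, a log2 ratio of 4.34 (4.05 to 4.65), the highest of all 5255 genes. The log2 step from the weak to the second set was 0.55, and that from the third to the strong set 2.44. At 4000 UMIs an Egr3 UMI was seen in 0.938%, 1.61%, 3.42% and 11.8% of the barcodes of the sets in order, so that most barcodes of the strong set showed none at that depth.

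The orphan nuclear receptors related to NR4A1 were higher as well. Nr4a3 went from 5.17 through 6.03 and 8.67 to 21.97 CPM (log2 2.09, 1.88 to 2.30) and Nr4a2 from 17.0 through 23.9 and 31.8 to 48.4 CPM (log2 1.51, 1.39 to 1.63). Of 18 measured members of the immediate-early list 9 were past the fold upwards (beside 3.63% of all genes) and 0 downwards, with a median log2 ratio of 0.49. Among the 9, Egr3, Nr4a2, Nr4a3 and Zfp36 reached 20 CPM in the strong set only. Besides Egr3, Nr4a3 and Nr4a2 the 9 were Ier2 (87.6, 107, 134 and 197 CPM), Junb (257, 279, 348 and 461 CPM), Nab1, Btg1 and the RNA-decay factors Zfp36 and Zfp36l1. With barcodes thinned to 4000 UMIs and ranked anew 5 of 18 were past the fold (median 0.18), by mean CPM over barcodes 5 of 18 (median 0.20) and within G1 5 of 19 (median 0.13), where Btg1 and Zfp36l1 had ratios of −0.27 and −0.33. Egr3 and Nr4a3 shared a steep last step, whereas Nr4a2 and Junb, which encodes an AP-1 subunit, climbed over more of the ranking.

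Feedback genes of the ERK pathway were mostly higher. Of 8 measured, 5 were past the fold upwards and 0 downwards, beside 3.63% and 2.07% of all genes, with a median log2 ratio of 0.85. Spry2 reached 20 CPM in the strong set only. Thinned and ranked anew 4 of 8 were higher (median 0.50), and by mean CPM over barcodes 5 of 10 were higher and 1 lower (median 0.53). Within G1 7 of 11 were higher and 3 lower, beside 9.76% and 10.7% of all genes there. Spry2, an inhibitor of receptor-to-ERK signalling, stood at 7.39, 10.2, 15.01 and 31.6 CPM (log2 2.09, 1.92 to 2.27). Dusp2, a nuclear phosphatase of ERK whose promoter is printed above, stood at 102, 120.1, 154 and 215 CPM (log2 1.07), and Dusp5, another ERK phosphatase, ran from 46.4 to 101 CPM (log2 1.12). Trib1 and Rasa2 were the other 2. Etv5, an ERK-induced factor of γδ cells, went the other way without passing the fold, at 76.6 CPM in the weak and 62.9 CPM in the strong set.

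The NF-κB and NFAT list had 10 measured members, of which 5 were higher and 0 lower, beside 3.63% and 2.07% of all genes, with a median of 0.34. Thinned and ranked anew 1 of 9 was higher, and within G1 2 of 11 were higher and 3 lower, beside 9.76% and 10.7% of all genes there. Of the 5, Nfkbid and Rel reached 20 CPM in the strong set only, which favoured their direction. Nfatc1, an NFAT factor that amplifies its own transcription, stood at 41.7, 55.3, 86.2 and 142 CPM (log2 1.77, 1.70 to 1.85). Nfkbid, Rel, Nfkbia and Tnfaip3, which encode an atypical inhibitor, a subunit and 2 feedback inhibitors of NF-κB, had log2 ratios of 1.35, 1.15, 0.84 and 0.55. At 4000 UMIs an Nfatc1 UMI was seen in 16.8% of weak and 40.7% of strong barcodes. In B-cell barcodes the share was 25.7% (16.01 to 37.6) and the level 61.6 CPM, above those of the weak set. B cells can make Nfatc1 transcripts themselves, so that these values are no measure of free RNA.

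Chemokine genes had some of the widest differences. Ccl4 stood at 12.8, 16.1, 33.97 and 136 CPM (log2 3.41, 3.29 to 3.53) and its neighbour Ccl3 at 1.73, 2.29, 6.51 and 27.4 CPM (log2 3.99, 3.66 to 4.33). Both lie on chromosome 11, Ccl3 at chr11:83647844-83649355 and Ccl4 at chr11:83662584-83664683, and both encode chemokines that attract leukocytes. Xcl1, the gene of the chemokine lymphotactin, stood at 7.01, 8.57, 10.7 and 37.0 CPM (log2 2.40, 2.23 to 2.58). The log2 steps from the weak to the second set were 0.33 for Ccl4, 0.41 for Ccl3 and 0.29 for Xcl1. Those from the third to the strong set were 2.0, 2.1 and 1.8.

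In the strong set 151 barcodes had an Xcl1 UMI and 230 a Ccl3 UMI, whereas 929 had a Ccl4 UMI and 721 an Egr3 UMI. The 30 barcodes with the most, which are 1% of the strong set, held 84.2% of its 1471 Xcl1 UMIs, 47.8% of its 1089 Ccl3 UMIs and 34.9% of its 5391 Ccl4 UMIs. Single barcodes carried up to 136 UMIs of Xcl1 and 218 of Ccl4. For Egr3 the same share was 24.6%. Among surface receptor genes it was 5.42% for Cd5 and 4.57% for Cd28, but 23.7% for Tnfrsf9 and 18.7% for Tnfsf8, which had UMIs in 548 and 541 strong barcodes. At 4000 UMIs an Xcl1 UMI was seen in 1.56% of weak and 2.97% of strong barcodes, a much smaller difference than that of the sums. Among barcodes called G1 and ranked anew, 224 strong and 225 weak, its log2 ratio was −1.62, and among those called S and G2/M 1.93 and 3.22. Ccl4 was seen in 5.35% and 19.8%, against 2.86% (0.348 to 9.94) in the B-cell barcodes. Summed over all 187 B-cell barcodes Ccl4 stood at 22.5 CPM, from 14 barcodes, and Xcl1 at 9.48 CPM, from 2 barcodes, both above the weak and second sets.

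Ccl4 was found more often in barcodes that had Egr3. Of the 2522 strong barcodes at 4000 UMIs, 297 had an Egr3 UMI, and 31.6% of these (26.4 to 37.3) had a Ccl4 UMI against 18.2% (16.7 to 19.9) of the 2225 without Egr3. For Nr4a3 the shares were 18.9% and 7.60%, for Spry2 15.8% (11.9 to 20.5) and 10.5% (9.23 to 11.8), for Nfatc1 45.1% and 40.1% and for Ccl3 9.09% and 5.08%. For Xcl1 they were 2.69% and 3.01%, for Cd5 51.9% and 50.1% and for Gzma 41.1% and 40.2%, each pair within the other's interval. These shares describe cells of 1 library and are no test. Egr3, Ccl4 and Ccl3 also climbed with the ranking inside the strong set, between the ninth and the last of 10 parts from 22.2 to 86.1, from 76.0 to 254.5 and from 13.8 to 53.7 CPM, whereas Cd5 (183 and 203 CPM) and Gzma (244 and 227 CPM) were nearly level there. The part of the ranking in these shares was not tested.

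Other cytokine genes were higher too. The chemokine and cytokine list had 8 measured members, with 5 higher, 1 lower and a median of 1.15, beside 3.63% and 2.07% of all genes. Of the 5, Ccl3, Ccl4, Xcl1 and Tnfsf8 reached 20 CPM in the strong set only, so that the filter partly fixed this count. The median was 0.48 by mean CPM over barcodes and 0.26 when thinned and ranked anew, with 3 of 7 higher in each. Tnfsf8, the CD30 ligand, went from 7.498 to 23.2 CPM (log2 1.63) and Tnfsf11, the RANK ligand by which thymocytes act on epithelium, from 23.2 to 37.1 CPM (log2 0.67). The lower gene was Il16, from 30.2 to 17.3 CPM (log2 −0.81), which reached 20 CPM in the weak set only.

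Surface receptors whose level depends on TCR signals were higher in 9 cases. Of 15 measured, 9 were past the fold upwards and 0 downwards, with a median of 0.67, beside 3.63% and 2.07% of all genes. Tnfrsf9 and Tnfsf8 reached 20 CPM in the strong set only. The list was one-sided when thinned and ranked anew (5 of 14 higher, median 0.30), within S (11 of 16 higher) and within G2/M (9 of 15), but within G1 6 of 16 were higher and 5 lower with a median of 0.23, beside 9.76% and 10.7% of all genes there. Within G1 at matched depth 4 were higher and 4 lower with a median of −0.02. Cd5, a receptor that dampens TCR signals, stood at 81.4, 113, 149 and 186 CPM (log2 1.19, 1.14 to 1.25). Cd69, an early activation receptor that holds thymocytes in the thymus, stood at 99.2, 129, 158 and 204 CPM (log2 1.04), and Cd28, the costimulatory receptor, at 173, 238, 291 and 345 CPM (log2 0.99). Their steps were near even from set to set, unlike those of Egr3 and the chemokines. At 4000 UMIs a Cd5 UMI was seen in 28.5% of weak and 50.3% of strong barcodes, and a Cd28 UMI in 44.6% and 70.5%, all above the shares in B-cell barcodes named before.

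The remaining higher members were the inhibitory receptor gene Pdcd1 (115 and 189 CPM), Cd6 (49.4 and 91.5 CPM), the costimulatory Cd27 (238 and 367 CPM) and Tnfrsf9 (11.04 and 32.01 CPM), Tnfsf8, described above, and Cd24a. Cd24a encodes a surface protein lost on maturation and used in the sort, and its values in order were 188, 178, 205 and 299.8 CPM, so that it differed only at the top of the ranking. Cd52 did not pass the fold, at 275 and 230 CPM.

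**Figure D2:**
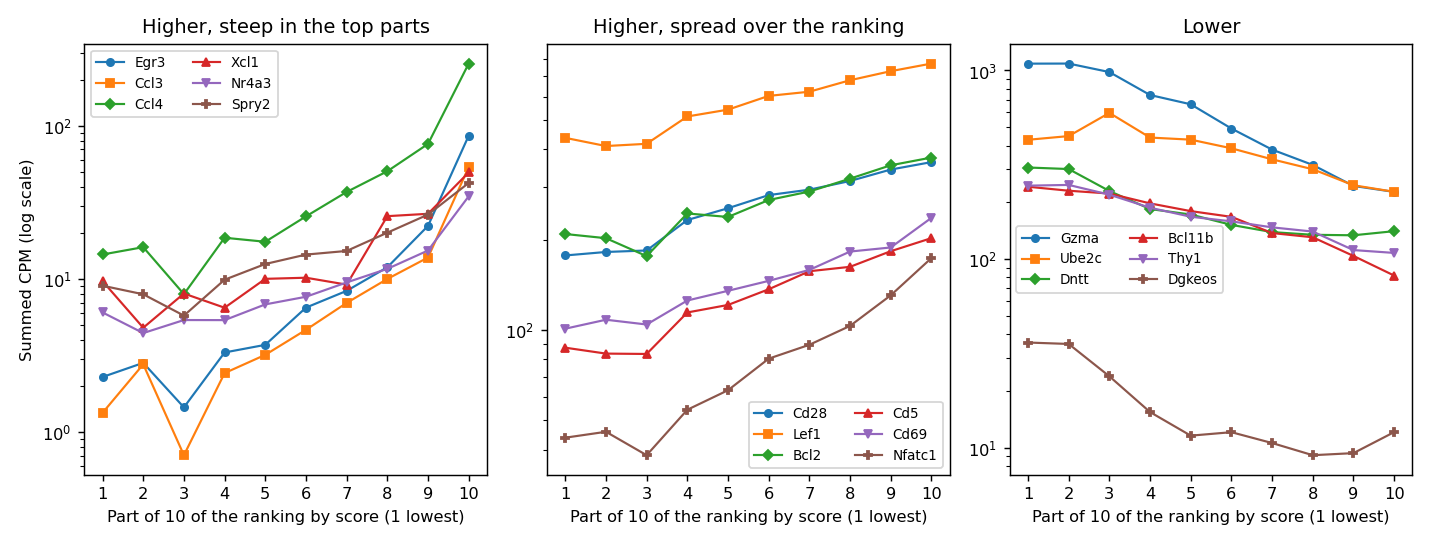
Summed CPM (log axis) of 18 genes in 10 near equal parts of the ranking, from the lowest to the highest share of Egr1, Egr2, Nr4a1 and Nab2 UMIs (the first 2 parts hold no UMI of these genes). Egr3 and the chemokine genes climb mainly in the last parts (Ccl4 from 76.0 CPM in the ninth to 254.5 in the last), Cd28 climbs along the whole ranking, and Gzma descends from 1087 to 227 CPM.

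The shape along the ranking was also counted for all genes past the fold. For the 191 higher genes the median share of the log2 difference that fell between the weak and second sets was 29.8%, and between the third and strong sets 39.2%. The last step held over 50% of the difference in 33 of them and the first step in 9. For the 109 lower genes the medians were 27.8% and 44.0%, with 37 genes over 50% in the last step and 13 in the first. Dgkeos, Dntt, Dgke and Arpp21, which are described below, were among the 13.

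Of 8 measured TCR and CD3 genes 1 was higher (12.5%) and 0 lower, beside 3.63% and 2.07% of all genes, with a median of 0.29. Trac, the constant region of the TCR α chain, went from 25.5 through 33.6 and 43.8 to 58.3 CPM (log2 1.19). Trdc stood at 869, 969.9, 1074 and 1177 CPM, a log2 ratio of 0.44 that stayed under the fold. Of 33 proximal signalling genes 3 were higher (9.09%) and 2 lower (6.06%), with a median of −0.01. The phosphatase gene Ptprc (353 and 579.5 CPM), the ubiquitin ligase gene Cblb and the adaptor gene Lcp2 were higher, and the adaptor genes Sh2d1a (229.5 and 116 CPM, log2 −0.99) and Grap2 (52.9 and 28.1 CPM) were lower. Lat stood at 396 and 394 CPM, Lck at 277 and 299 and Zap70 at 73.3 and 88.7, none past the fold.

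Among T-lineage transcription factors 3 of 18 were higher and 1 lower, beside 3.63% and 2.07% of all genes. Of the 3, Ikzf3 and Zfpm1 reached 20 CPM in the strong set only, which favoured their direction. Lef1, an HMG-box factor of early T cells, stood at 409, 516, 624 and 734 CPM (log2 0.85), Ikzf3, which encodes Aiolos, at 8.502, 12.3, 18.5 and 27.8 CPM (log2 1.71), and Zfpm1 went from 14.1 to 21.2 CPM. Bcl11b, which encodes a factor that secures T-lineage commitment, stood at 238, 191, 150.3 and 101 CPM (log2 −1.24, −1.29 to −1.19). At 4000 UMIs a Bcl11b UMI was seen in 53.9% of weak and 28.2% of strong barcodes, against 11.4% of B-cell barcodes. Id2, an inhibitor of E proteins, was past the fold at 23.9 and 38.0 CPM, 1 of 5 measured E and Id genes (beside 3.63% of all genes). Outside the lists Mef2c, a factor activated by calcium signals, was among the 15 highest genes, at 8.93 and 30.6 CPM, with Otud1, Cap2, Gramd1b and Cnih2. All of these reached 20 CPM in the strong set only, which favoured their direction.

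Genes of the γδ subsets gave no single direction. Of 14 genes taken mostly from those that the study names as induced by the γδ TCR in these libraries, which are therefore no independent evidence, Cd5, Cd6 and Pdcd1 were higher and Sox13 lower, beside 3.63% and 2.07% of all genes, with a median of 0.04. Within G1 3 were higher and 6 lower with a median of −0.38, and within G1 at matched depth 1 was higher and 7 lower with a median of −0.45. Sox13, a factor of IL-17-producing γδ cells, stood at 83.2, 76.2, 66.6 and 52.7 CPM (log2 −0.66). In the IL-17 list 2 of 11 measured genes were lower and 0 higher, beside 2.07% and 3.63% of all genes, the other being 5830411N06Rik, which reached 20 CPM in the weak set only. Maf stood at 17.6, 12.9, 19.7 and 24.4 CPM and did not pass. In the list of interferon-γ-type and cytotoxic genes 2 of 7 were higher and 1 lower, beside 3.63% and 2.07% of all genes. Of the 2 Xcl1 reached 20 CPM in the strong set only. Nkg7, a granule protein gene, stood at 230.3, 301, 352 and 406 CPM (log2 0.82), and Zbtb16, the gene of PLZF, was too low to be compared, at 1.22 and 2.92 CPM.

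Gzma was the gene with the lowest ratio. It encodes granzyme A, a serine protease of cytotoxic granules, on chr13:113093825-113100981 (minus strand). It stood at 1105, 719, 423 and 248 CPM (log2 −2.15, −2.19 to −2.12), falling at every set. At 4000 UMIs a Gzma UMI was seen in 67.2%, 55.1%, 47.9% and 40.3% of barcodes. The last of these was not separated from the 37.1% (25.9 to 49.5) of B-cell barcodes, which had 186 CPM. Before thinning, the 187 B-cell barcodes had a median of 3509 UMIs and the strong set one of 12692. These shares are therefore no common measure of free RNA, and its part in the Gzma share of the strong set was not tested. Nkg7 and Gzma, both granule genes, thus went in opposite directions.

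Of 16 measured genes of the DN3a stage and the pre-TCR, 8 were lower (beside 2.07% of all genes) and 1 higher, with a median of −0.51. Dgke, Dgkeos and Spats2 reached 20 CPM in the weak set only. Thinned and ranked anew 5 of 14 were lower with a median of −0.29. Dntt, the terminal transferase that adds bases to TCR junctions, stood at 295, 177, 144 and 136 CPM (log2 −1.12, −1.16 to −1.07). Dgkeos, an RNA on chr11:89064729-89069098 antisense to the kinase gene Dgke, stood at 34.8, 13.5, 11.1 and 10.2 CPM (log2 −1.77), and Dgke itself at 20.4 and 11.5 CPM. Arpp21, a gene of immature thymocytes, stood at 121, 80.7, 65.7 and 60.2 CPM. For these genes the weak set stood apart and the other sets were near each other.

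The remaining members were Hes1, a Notch target (57.7 and 32.5 CPM), Mns1, Spats2 and Xrcc6. Cd28, which is also on this list, was the higher one. Rag1, Rag2, Ptcra and Cd8b1 lay under 20 CPM and were not compared. Rag1, a subunit of the V(D)J recombinase, had 9.02, 1.28, 1.80 and 1.33 CPM in order, and Ptcra, the pre-TCR α chain, 15.9, 4.33, 5.295 and 4.30 CPM. A UMI of Rag1, Ptcra or Cd8b1 was present in 385 barcodes of the weak set (13.2%), 180 of the second (6.17%), 188 of the third (6.45%) and 156 of the strong set (5.35%). At 4000 UMIs these shares were 8.13% (7.10 to 9.26), 1.82%, 3.10% and 2.02% (1.51 to 2.65).

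Leaving out all barcodes with such a UMI, a setting chosen after seeing the data, gave 182 higher and 109 lower genes, of which 172 and 99 were shared with the full comparison. The log2 ratio of Dgkeos was then −1.27, that of Dntt −0.84 and that of Arpp21 −0.69, whereas Gzma kept −2.18 and Bcl11b −1.21. Hes1 moved from −0.83 to −0.74 and Mns1 from −0.86 to −0.88. Dgkeos, Dntt and Arpp21 therefore stood closer to 0 without these barcodes, while Mns1, Gzma and Bcl11b moved by less than 0.05.

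Genes of the later and earlier stages were also counted, from lists built on the DN4 γδ+ and DN3a libraries. Of 247 genes with a log2 ratio of at least 2 in DN4 γδ+ over DN3a, 167 were compared, of which 26 were higher (15.6%) and 27 lower (16.2%) in the strong set, beside 3.63% and 2.07% of all genes. Of 152 genes with the reverse pattern 48 were compared, with 5 higher (10.4%) and 10 lower (20.8%). Of the 27 lower late genes 9 were on the G2/M list, among them Ube2c, Cenpa and Cdc20, and of the 26 higher late genes 0.

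Mitotic genes were among the lower genes, and S-phase genes stayed under the fold. Of 48 measured G2/M genes 13 were past the fold downwards (27.1%, beside 2.07% of all genes) and 0 upwards, with a median of −0.33, and of the 13 Pimreg reached 20 CPM in the weak set only. With sets taken at matched depth 5 of 48 were lower with a median of −0.14, and within S 1 of 42 with a median of −0.05. Within G2/M 8 of 50 were lower and 0 higher with a median of −0.18, beside 1.92% lower of all genes there. Within G1 3 of 24 were lower and 1 higher, beside 10.7% and 9.76% of all genes there. Ube2c, which serves the anaphase-promoting complex, stood at 526, 439, 353 and 250.4 CPM (log2 −1.07, −1.10 to −1.04), and Cenpa, the centromeric histone, went from 216 to 108 CPM (log2 −0.998). In 10 parts of the ranking Ube2c began at 429, 449, 596 and 441 CPM and ended at 227.5, so that it did not fall throughout. The part with 596 CPM was also the deepest, with a median of 21328 UMIs. Of 42 S-phase genes 0 passed the fold either way, beside 5.71% of all genes, although 41 had ratios above 0, with a median of 0.19. The same 2 lists had called the phases. Within barcodes called S and ranked anew Ube2c had a log2 ratio of −0.01, within those called G2/M −0.85, and with sets taken at matched depth −0.73.

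None of the 38 measured ribosome-biogenesis genes passed the fold, beside 5.71% of all genes, with a median of 0.18. Of 16 transporter and growth genes 4 were higher (beside 3.63% of all genes) with a median of 0.04, all solute carriers, of which Slc29a1, a nucleoside transporter, went from 92.6 to 180.4 CPM (log2 0.96) and Slc19a1, a folate transporter, reached 20 CPM in the strong set only. Ccnd2, the D-type cyclin through which signals drive entry into the cycle, stood at 123, 151, 204 and 314 CPM (log2 1.35, 1.30 to 1.39). E2f1 and Gadd45b were the other 2 higher genes of 14 in the G1 list (21.4%, beside 3.63% of all genes). Gadd45b reached 20 CPM in the strong set only, and within G1 the log2 ratio was −0.25 for E2f1 and −0.66 for Gadd45b. Of 11 BCL2-family genes only Bcl2, which favours survival, was past the fold (9.09% higher, beside 3.63% of all genes). It stood at 186, 236, 286 and 355 CPM (log2 0.94).

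Homing and egress genes had more lower than higher members. Of 22 measured 6 were lower (27.3%, beside 2.07% of all genes) and 2 higher (9.09%, beside 3.63%), with a median of −0.16. Thinned and ranked anew 3 of 22 were lower and 1 higher, beside 1.12% and 1.56% of all genes. With the ranking cut into 2 parts 2 of 23 were lower, beside 34 of all 5188 genes. Within G1 12 of 27 were lower and 2 higher, with a median of −0.38, beside 10.7% and 9.76% of all genes there. Ccr9, a thymic and gut homing receptor gene, stood at 193, 172, 162 and 129 CPM (log2 −0.58), and Itga4, an integrin gene, at 96.1 and 49.7 CPM (log2 −0.95). S1pr1, the egress receptor gene, was near 1 CPM in both sets and was not compared. Thy1, a surface glycoprotein of T cells, was lower at 245, 181, 151 and 117 CPM (log2 −1.07). Heat-shock and interferon lists had 0 of 13 and 0 of 4 genes past the fold, beside 5.71% of all genes, so that lists this short say little.

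**Figure D3:**
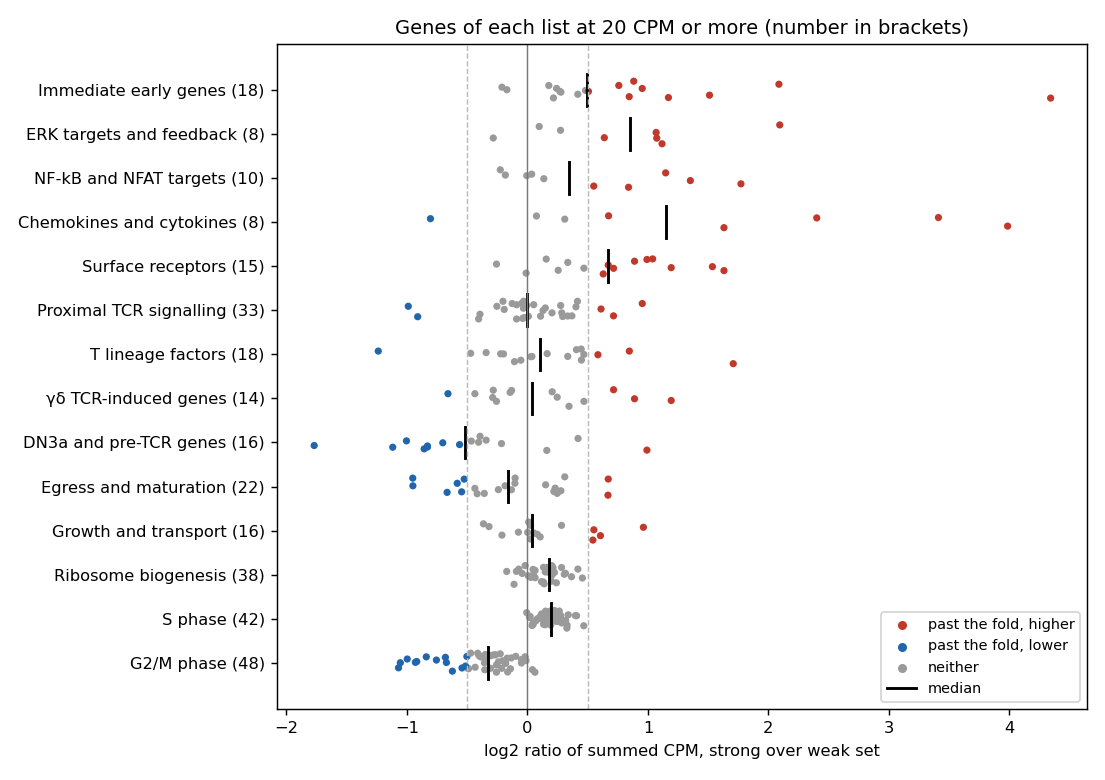
Log2 ratio of summed CPM, strong over weak set, of the measured members of 14 gene lists, 1 point per gene, with the median of each list and the limits of 0.5 either way. The surface receptor and ERK feedback lists lie above 0 with medians of 0.67 and 0.85, the DN3a and pre-TCR list and the G2/M list below it with medians of −0.51 and −0.33.

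The pool of female and male mice allowed the comparison to be made within each sex. The 5909 barcodes with Xist and no Y-linked UMI and the 3105 with Y-linked UMIs and no Xist were ranked separately. In the first, 211 genes were higher (4.02%) and 119 lower (2.27%), and in the second 218 (4.16%) and 134 (2.56%). Higher in both were 162 genes, 76.8% of the first list and 74.3% of the second, and lower in both 97, 81.5% and 72.4%. The 191 and 109 genes of the full comparison all had the same sign in each, although the barcodes were also in the full comparison. The 1684 barcodes with both kinds of UMI, which doublets or free RNA can give, made up from 13.1% to 15.3% of every set.

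The ratios of single genes were also read in each sex. Xcl1, whose UMIs lay mostly in 30 barcodes of the strong set, had a log2 ratio of 3.28 in the Xist barcodes and 1.02 in the Y-linked ones, and Ccl3 of 4.93 and 3.53. Egr3 had 4.59 and 4.24, and Gzma −2.19 and −2.23. Whether these pairs differ was not tested.

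**Figure D4:**
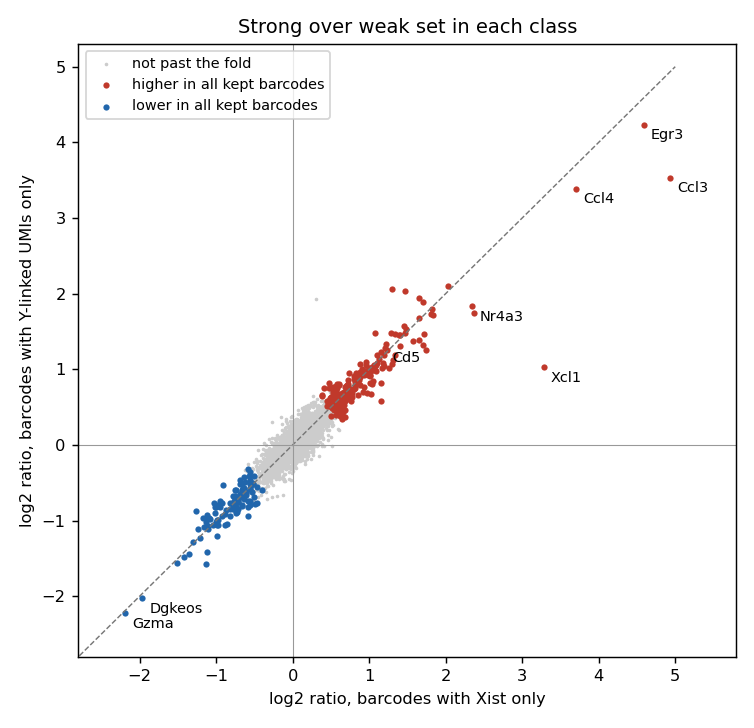
Log2 ratio of strong over weak set in barcodes with Xist only (x axis) and with Y-linked transcripts only (y axis), for the genes compared, with the 191 higher and 109 lower genes of the full comparison marked. Both marked groups of genes keep their sign on each axis, and Xcl1 lies off the diagonal at 3.28 against 1.02.

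The same filter and ranking were applied to the other 6 libraries, whose values the choice of barcodes had not used. The share of barcodes without any UMI of the 4 genes was 21.0% in DN3b γδ+ and 46.8% in DN4 γδ+. Among the γδ− libraries it was 67.3% at the DN4 and 74.9% at the DN3b stage, and DN3a had 79.7%. The γδ− and γδint libraries of Lat-KO mice had 90.2% and 89.5%. Median depths ran from 5878 to 19177 UMIs over these libraries and were 17203 in DN3b γδ−, above the 15990 of DN3b γδ+. Summed over barcodes the 4 genes took 192 CPM in DN3b γδ+, 170.2 in DN4 γδ+ and between 15.4 and 40.6 in the other 5. The share of barcodes above the 283 CPM that opened the strong set was 17.3% in DN4 γδ+ and from 0.652% to 3.61% in the other 5. In DN3a and both Lat-KO libraries the top set held barcodes with no UMI of the 4 genes, so that the split there was partly arbitrary. In each of the other 6 libraries more barcodes had no such UMI than the weak set holds. Barcode order therefore chose the weak set from tied barcodes there, also in DN4 γδ+, where 3442 of 7353 barcodes had none. Between 16 and 48 barcode sequences were shared with each other library.

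Outside the γδ+ libraries few genes differed between the sets, but the sets there also lay closer together in the 4 ranking genes. The strong sets held from 63.2 CPM of these genes (Lat-KO γδ−) to 152 CPM (DN3a). In DN3b γδ+ and DN4 γδ+ the strong sets held 554 and 499 CPM. The part of this narrower split in the low counts was not tested. Of the 191 higher genes 128 were measured in DN3a and 12 were also higher there, beside a background of 0.682%, and at most 3 were in each of the remaining 4. The backgrounds of these were 0.0780% in DN3b γδ−, 0.187% in DN4 γδ−, 0.0490% in the γδ− and 0.0771% in the γδint library of Lat-KO mice. Of the 109 lower genes 0 were lower past the fold in these 5 libraries, where at most 3 genes of all were (DN3a 0.0180% and DN3b γδ− 0.0585%). In the γδ− library of Lat-KO mice 2 of them, Ccnb1 and Cenpf, were past the fold upwards, among 3 genes of all.

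DN4 γδ+ cells, the next stage on the γδ path, shared part of the pattern. There 257 of 5661 genes were higher (4.54%) and 110 lower (1.94%). Of the 191 higher genes 163 were measured there and 60 were also higher, which is 36.8% of the 163 and 23.3% of the 257. Of the 109 lower genes 93 were measured and 26 also lower, 28.0% of the 93 and 23.6% of the 110. Egr3 went from 1.58 to 35.3 CPM (log2 4.48), Spry2 from 15.5 to 54.3 CPM (log2 1.80) and Cd5 from 60.5 to 113 CPM (log2 0.91), and Cd28 had a log2 ratio of 1.03. Bcl11b, Thy1, Sox13 and Gzma were lower in both libraries, Gzma from 2720 to 1807 CPM (log2 −0.59). Other genes did not follow: Ccl4 stood at 24.5 and 26.5 CPM in DN4 γδ+ (log2 0.12), Nkg7 at 338 and 339 CPM and Cd69 at 199.8 and 219 CPM (log2 0.13).

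Several mitotic genes went in opposite directions in the 2 γδ+ libraries. Of the 109 lower genes 19 were past the fold upwards in DN4 γδ+, among them Cenpf, Ccnb2, Cdc20, Hmmr, Plk1 and Prc1. Ube2c went from 145 to 243 CPM there, a log2 ratio of 0.74 (0.67 to 0.82) against −1.07 in DN3b γδ+. Median UMIs of weak and strong sets were 6160 and 7599 in DN4 γδ+ and 15281 and 12692 in DN3b γδ+, so that depth also ran in opposite directions. The part of depth in the mitotic difference between libraries was not tested.

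**Figure D5:**
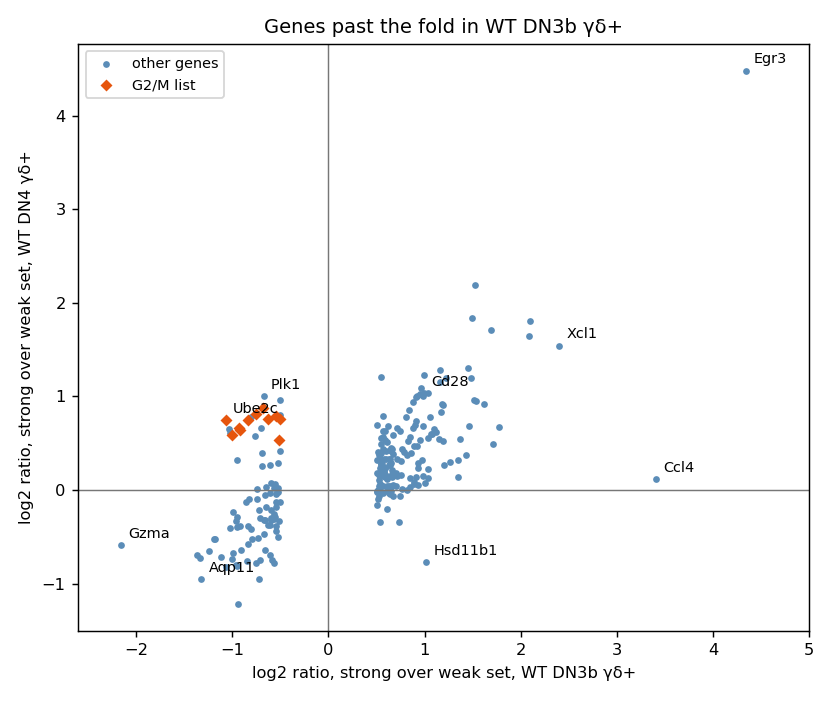
Log2 ratio of strong over weak set in DN3b γδ+ (x axis) and in DN4 γδ+ (y axis) for the genes past the fold in DN3b γδ+, with G2/M list genes as diamonds. Egr3 and Cd28 are positive on both axes, Gzma is negative on both, and the G2/M genes are negative in DN3b γδ+ and mostly positive in DN4 γδ+ (Ube2c −1.07 and 0.74).

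The levels of these genes over whole libraries, each with 1 library and no replicate, are given beside those of the sets. Cd5 stood at 129.7 CPM in DN3b γδ+ and 81.9 in DN4 γδ+, at 4.76 to 10.9 in DN3a, DN3b γδ− and DN4 γδ−, and at 1.89 and 1.73 in the Lat-KO libraries. The 81.4 CPM of the weak set thus lay far above the level of each of these 5 libraries. It was nearer to the 71.1 CPM of Cd5 in the spiked B-cell barcodes of the DN3b γδ+ library. Those barcodes had a median of 3509 UMIs against 15281 in the weak set, so that a like CPM stood for fewer Cd5 UMIs per B-cell barcode. The part of free RNA in the weak set's level was not tested. Dgkeos stood at 308 CPM in DN3a and at 17.3 in DN3b γδ+, so that the 34.8 CPM of the weak set was well under the DN3a level. DN3a had 224 CPM of Gzma, DN3b γδ+ 639 and DN4 γδ+ 2442, with 1105 in the weak set between the last 2 and 248 in the strong set near the first.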

How the data were processed

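Sorted thymocytes were profiled with the 10x 3′ v3 kit, and the deposited files held UMI counts of 32286 features per barcode, which the authors made by aligning reads to mm10 with an edited Trdc reporter (Cell Ranger 4.0.0 per the file headers, 5.0.1 per the submitters' processing notes) without scaling or correction for free RNA. Barcodes were filtered and ranked as described in the report with pandas 2.3.3, scipy 1.17.1 and numpy 2.4.6 under Python 3.11.15, and counts were summed per set and scaled to CPM. Log2 ratios have exact conditional binomial 95% intervals and shares exact Clopper-Pearson 95% intervals, both for counting error only. Genes needed 20 CPM in either set. A count of 0 entered ratios at a floor of 3 counts per set. Phases and doublets were scored with scanpy 1.11.5. Scrublet marked 0 of the 11663 barcodes at its own threshold, which is too few for the caller to have worked, so that doublets were treated only through the sort, the B-marker limit and the alternatives. TMM scaling used edgeR 4.0.16 (R 4.3.3), and figures matplotlib 3.10.9. Positions came from GENCODE vM21 (mm10) and promoters from RefSeq. The scripts were tested on simulated data.

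Named genes were the 4 ranking genes, the 15 highest and 15 lowest by ratio without mitochondrial, ribosomal-protein, Gm and Rik genes, the 3 highest, the 3 lowest and every member past the fold in each gene list, and genes that the study names. Not every gene under this rule is reported here. Knstrn, Lockd, Plk1, Tuba1c, Prdx4 and Hsd11b1 fall outside this rule. The study does name Ccnb1 and Prc1 among genes of cycling cells, but they were not in the set of named genes used here. All of these genes were chosen after their values were seen. The members and lists were chosen with earlier results of these data known, and the γ-chain, δ-segment and chemokine lists were added afterwards. Library totals ran from 49407750 to 375688164 UMIs, with 221390775 in WT DN3b γδ+. Alternatives varied scaling, level filter, depth, ranking genes, part of the ranking, phase, barcode filter, doublets, sex and early-stage barcodes.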

Additional observations from a re-analysis of the deposited data

Results flagged for a closer look

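Some genes took opposite directions in the WT DN3b γδ+ and WT DN4 γδ+ libraries under the same ranking. Lower past the fold in the strong set of DN3b γδ+ and higher in that of DN4 γδ+ were 19 genes. Of these Cenpf, Tubb4b, Ube2c, Aurka, Cenpe, Cdc20, Cenpa, Ccnb2, Hmmr, Cks2 and Dlgap5 are on the G2/M list, and Knstrn, Cdc25b, Lockd, Prc1, Plk1, Ccnb1, Tuba1c and Prdx4 are not. Plk1, the mitotic kinase, had log2 ratios of −0.67 and 0.999, and Ccnb1, the mitotic cyclin, −1.02 and 0.61. The opposite held for 1 gene, Hsd11b1, an enzyme that regenerates active glucocorticoid, with 1.02 in DN3b γδ+ and −0.77 in DN4 γδ+. With 1 library of each, the difference between the libraries was not tested.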

How the results depend on the processing

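The 191 higher and 109 lower genes past the fold were recounted under 24 alternatives, of which 4 were chosen after seeing the data (the 8% highest doublet scores, barcodes with both Xist and Y-linked UMIs and early-stage barcodes left out, and G1 barcodes at matched depth). The number of higher genes was 823 without a level filter, 82 with barcodes thinned to 4000 UMIs and ranked anew on the thinned counts, 126 by mean CPM over barcodes, 113 with Nab2 out of the ranking, 72 with the ranking cut into 2 parts, 540 within G1 and 452 within G1 at matched depth. The number of lower genes was 673 without a level filter, 59 when thinned and ranked anew, 34 with 2 parts, 594 within G1, 65 within S and 407 within G1 at matched depth. The G1 sets held 224 and 225 barcodes, so that counting error alone was larger there. Other counts stayed within 1.5 times, and TMM gave 155 higher and 132 lower genes, a shift of −0.05. For the 102 named genes past the fold, the sign of the ratio was opposite in 12 genes within G1, 15 within G1 at matched depth and 1 within S. TMM, the level filter and the doublet call, which marked 0 barcodes, could not turn a sign and say nothing of stability. Within G1 these were Ass1 0.024, Aurka 0.11, Btg1 −0.27, Cdc20 0.41, E2f1 −0.25, Epcam −0.37, Gadd45b −0.66, Kif2c 0.40, Nfkbia −0.38, Tubb4b 0.063, Xcl1 −1.62 and Zfp36l1 −0.33. Within G1 at matched depth they were Ass1 0.23, Aurka 0.062, Btg1 −0.13, Cdc20 0.20, E2f1 −0.17, Epcam −0.40, Gadd45b −0.23, Kif2c 0.062, Nfkbia −0.30, Tnfrsf9 −0.20, Tnfsf8 −0.15, Trac −0.0055, Tubb4b 0.041, Xcl1 −0.10 and Zfp36l1 −0.17, and within S Hmmr 0.031. The cause of these reversals was not tested. No paired analysis was possible because each group had 1 library. Depth limits genes under 20 CPM and shares below those of B-cell barcodes, and free RNA was not removed.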
